A study of Mus musculus with 15 samples.

Results

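MYC, a transcription factor, and 34 genes of ribosome biogenesis were followed in fibroblasts sorted from mouse lungs, either healthy or carrying metastases of human breast cancer cells. The genes form a list of 35 names, chosen with earlier results of these data known. It holds Myc itself and 8 genes of RNA polymerase I and ribosomal RNA (rRNA) transcription. Small nucleolar ribonucleoproteins (snoRNPs) give 3 genes of the box C/D and 3 of the box H/ACA kind. A further 6 are of small subunit processing, 9 of large subunit assembly, and 5 are nucleolar chaperones and regulators. All 35 were measured, among 18194 genes with a named probe set. Each gene was read by the probe set that names it alone and has the highest mean log2 intensity over all 15 arrays. Of the 35, 23 had several such probe sets and 12 had one.

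Ribosomes are built in the nucleolus. RNA polymerase I copies the rRNA genes into a long precursor, snoRNPs modify and help cut it, and assembly factors fold the pieces with ribosomal proteins into the small and large subunits. MYC, acting as a heterodimer with MAX on E-box sequences, is known to raise transcription of many of these genes in growing cells, and fibroblasts that leave rest and divide are a textbook setting for its induction.

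The 15 Affymetrix mouse arrays fell into 5 groups of 3 biological replicates. Healthy fibroblasts came from tumour-free NSG mice, and the other groups from NSG mice given cancer cells through the tail vein. These were either the human breast cancer line MDA-MB-231 (MDA below) or MDA-MB-231-LM2 (MDA-LM2 below), selected from it for colonising lung. Lungs were taken at week 1, when metastases were small (MDA micro and MDA-LM2 micro), or at week 3, when they were large (MDA macro and MDA-LM2 macro). All mice, healthy ones included, were on the severely immunodeficient NSG background, which lacks mature lymphocytes but keeps myeloid cells. Mice were 6 to 8 weeks old at injection, healthy mice were matched for age, and mice with similar metastatic load were picked for both lines at each stage. Each replicate held cells of 1 to 3 mice, so p-values reflect how far single mice, or pools of a few, lay apart, and stage is bound to the time since injection. Cells were sorted as positive for PDGFRA or PDGFRB after removal of cells bearing leukocyte, endothelial or epithelial surface markers, so each group is a mixed lung fibroblast population. In such bulk samples more cells of one kind and more RNA per cell cannot be told apart.

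The genes of the sort were read on every array, although levels of different probe sets cannot be ranked against each other and so do not measure purity. Over the 15 arrays log2 intensity ran from 11.70 to 12.65 for Pdgfra and from 11.67 to 12.44 for Pdgfrb. It ran from 6.26 to 6.57 for Ptprc (leukocytes), from 5.53 to 6.63 for Itgam (myeloid cells), from 6.47 to 6.71 for Epcam (epithelium), from 6.89 to 8.27 for Pecam1 (endothelium) and from 7.48 to 9.52 for Sftpc, a gene of alveolar epithelium. Within the macro groups Pdgfra was lower than in healthy cells, by -0.62 ± 0.11 in MDA and -0.57 ± 0.12 in MDA-LM2 (log2 fold change ± SE), while Pdgfrb was higher by 0.55 ± 0.12 in MDA (limma adjusted p = 0.0115, 0.0149 and 0.021). Intensities here are the authors' normalised array values, put on a log2 scale so that a difference of 1 is a doubling, and a gene was called when its p-value from limma, adjusted by Benjamini-Hochberg over all 18194 genes, was under 0.05.

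Because MYC binds the E-box CACGTG, promoter sequence is shown for 4 genes that differ in this word: Rrn3 with 2 copies, Nop2 with 1, Nhp2 with only the related word CACGCG (or its complement CGCGTG), and Nop58, which had one of the firmest changes and carries neither. Each run is the RefSeq window of 250 bases before and 50 bases after the transcription start in build GRCm38.p6, written 5′ to 3′ on the plus strand, which is the gene's strand for all 4, with the E-box words in capitals. The windows are chr16:13780449-13780748 for Rrn3, chr6:125131633-125131932 for Nop2, chr11:51619523-51619822 for Nhp2 and chr1:59684756-59685055 for Nop58.
Rrn3: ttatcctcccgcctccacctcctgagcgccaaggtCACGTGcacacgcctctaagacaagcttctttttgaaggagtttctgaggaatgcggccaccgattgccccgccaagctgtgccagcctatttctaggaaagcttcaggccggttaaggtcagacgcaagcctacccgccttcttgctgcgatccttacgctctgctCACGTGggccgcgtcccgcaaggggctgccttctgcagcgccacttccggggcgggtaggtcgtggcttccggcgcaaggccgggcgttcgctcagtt
Nop2: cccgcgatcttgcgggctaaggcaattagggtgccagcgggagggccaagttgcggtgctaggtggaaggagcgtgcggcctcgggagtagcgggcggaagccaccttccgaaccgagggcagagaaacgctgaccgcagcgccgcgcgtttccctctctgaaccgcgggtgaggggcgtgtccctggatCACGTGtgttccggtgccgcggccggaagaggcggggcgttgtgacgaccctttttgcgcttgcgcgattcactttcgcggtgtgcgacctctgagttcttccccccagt
Nhp2: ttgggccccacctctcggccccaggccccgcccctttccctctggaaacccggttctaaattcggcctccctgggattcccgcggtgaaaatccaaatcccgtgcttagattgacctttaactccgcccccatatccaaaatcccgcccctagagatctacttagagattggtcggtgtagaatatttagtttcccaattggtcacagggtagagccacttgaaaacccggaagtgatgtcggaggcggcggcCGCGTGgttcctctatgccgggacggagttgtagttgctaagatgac
Nop58: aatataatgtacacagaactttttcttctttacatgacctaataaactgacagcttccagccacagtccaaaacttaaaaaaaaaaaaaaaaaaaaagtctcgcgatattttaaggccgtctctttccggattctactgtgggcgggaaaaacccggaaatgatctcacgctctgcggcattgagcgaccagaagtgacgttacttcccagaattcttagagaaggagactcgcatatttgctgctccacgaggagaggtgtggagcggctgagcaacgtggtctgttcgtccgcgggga

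Counted in bases from the transcription start, the copies in Rrn3 began at -215 and -48 and that in Nop2 at -60. Windows were at hand for 28 of the 35 genes. CACGTG, searched on both strands, was in the windows of 6 of them (21.4%: Mybbp1a, Nop2, Pes1, Rrn3, Utp20 and Wdr43), against 8.9% of 17491 protein-coding genes. CACGCG or CGCGTG was in 11 of the 28 (39.3%), against 13.7%. A match describes the letters in this window and no more, and a window without a match says nothing about MYC.

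Myc had the largest estimated change against healthy in both macro groups. Its log2 intensity was 9.66, 9.10 and 9.80 on the healthy arrays, 8.53, 8.65 and 8.64 in MDA micro, 9.81, 9.40 and 10.49 in MDA-LM2 micro, 11.44, 11.70 and 11.53 in MDA macro and 11.36, 11.26 and 11.17 in MDA-LM2 macro. All 6 macro arrays lay above all 9 others. Ordered by mean, the groups ran MDA micro (8.60), healthy (9.52), MDA-LM2 micro (9.90), MDA-LM2 macro (11.27) and MDA macro (11.56), and only healthy and MDA-LM2 micro overlapped among neighbours in this order.

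Against healthy cells Myc was 4.11-fold higher in MDA macro (log2 fold change 2.04 ± 0.20, adjusted p = 0.00127) and 3.36-fold higher in MDA-LM2 macro (1.75 ± 0.19, adjusted p = 0.00119). Both comparisons use the same 3 healthy arrays. Each of the calls held without any single array and under every alternative setting run. The array carries 1 probe set for Myc, so no second reading of the transcript was at hand.

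From week 1 to week 3 Myc rose 7.74-fold with MDA (2.95 ± 0.12, adjusted p = 9.34e-05) and 2.58-fold with MDA-LM2 (1.37 ± 0.26, adjusted p = 0.0132). The difference between these rises, MDA-LM2 less MDA, was -1.59 ± 0.30 (adjusted p = 0.0454), the one interaction called among the 35 genes, where 0.566% of all genes were called, 0.154% higher and 0.412% lower. At an unadjusted p under 0.05, 4 of the 35 interactions passed, against 11.5% of all genes. This call sat at the threshold, since it was lost without any one of 10 of the 12 arrays, with adjusted p up to 0.103, while the value stayed between -1.83 and -1.29. Within stages the lines differed by 1.30 ± 0.26 in micro (MDA-LM2 higher, adjusted p = 0.123) and by -0.29 ± 0.12 in macro (adjusted p = 0.467), neither called. The 3 MDA micro arrays lay below all healthy arrays as well, at -0.91 ± 0.19 (adjusted p = 0.339).

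**Figure D1:**
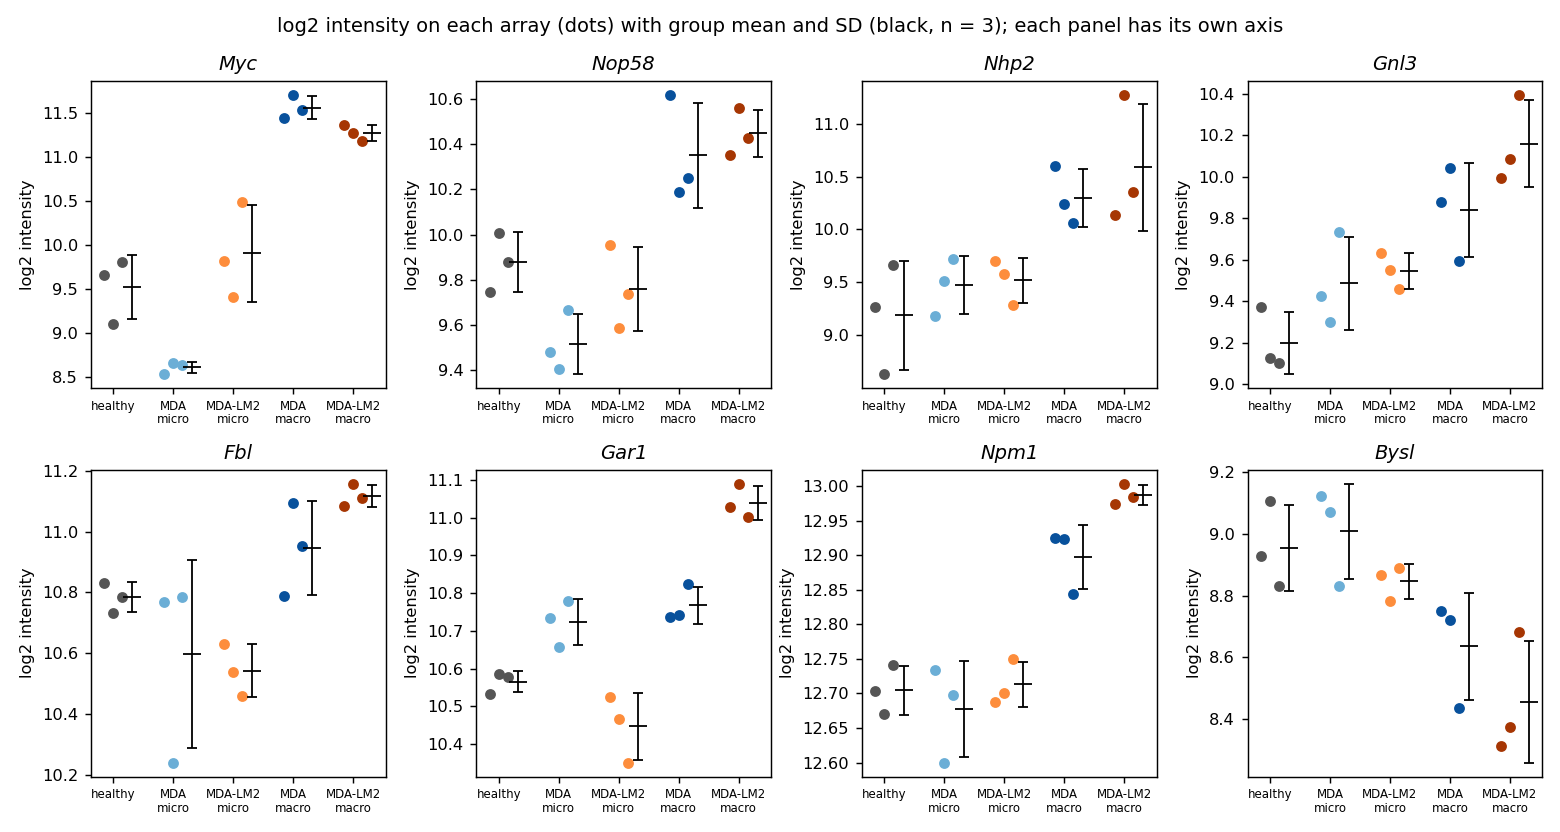
log2 intensity (y axis) on each of the 3 arrays per group (dots) with group mean and SD (black), in healthy, MDA micro, MDA-LM2 micro, MDA macro and MDA-LM2 macro, for 8 genes, each panel with its own axis. Myc in the 6 macro arrays sat between 11.17 and 11.70 and above every other array, whereas the shift in Npm1 spanned 0.25 between stages.

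At week 1 no other gene of the list moved past the test either. In MDA micro against healthy 0 of 35 were called (all genes: 0%) and 2 had an unadjusted p under 0.05 (all genes: 8.48%), Myc and Nop58, both lower. In MDA-LM2 micro 0 of 35 were called (all genes: 0.583%, with 0.467% higher and 0.115% lower), and 2 had an unadjusted p under 0.05 (all genes: 12%), Rrp12 and Gnl3, both higher. The median log2 fold change of the list was -0.026 in each, beside 0.00039 and 0.013 over all genes. Between the lines in micro 0 of 35 were called (all genes: 0.412%, with 0.341% higher and 0.0715% lower), with an unadjusted p under 0.05 (all genes: 11.7%) for Myc (higher in MDA-LM2) and Gar1 (lower). Ppan, a large subunit assembly factor, was among the lowest p-values in MDA micro against healthy, with 9.18, 9.32 and 9.20 against 9.09, 8.76 and 9.01 (0.28 ± 0.12, adjusted p = 0.609). Nop2, an rRNA methyltransferase of the large subunit, held that place between the lines, with 8.91, 8.76 and 8.85 in MDA-LM2 micro against 8.56, 8.71 and 8.55 in MDA micro (0.23 ± 0.11, adjusted p = 0.497).

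At week 3 members were called against healthy in both lines. In MDA macro against healthy 3 of 35 were called, all higher: Myc, Nhp2 and Gnl3. That is 8.57% of the list, where 15.2% of all genes were called in either direction, 8.43% higher and 6.8% lower. At an unadjusted p under 0.05, 8 of 35 passed, against 30.9% of all genes. In MDA-LM2 macro 11 of 35 were called (31.4%, all genes 22.6%), 9 higher and 2 lower, with 25.7% called higher against 13.6% of all genes, and 5.71% called lower against 8.98%. At an unadjusted p under 0.05, 14 of 35 passed, against 36.9% of all genes. The list is not matched to all genes in level, as 33 of the 35 lay above the median level. Among the 13645 genes above the lower quartile of level, which hold all 35, MDA-LM2 macro had 10 of the 35 called (8 higher, 2 lower). Of all 13645 such genes, 3766 were called. The median log2 fold change was 0.15 in MDA macro and 0.28 in MDA-LM2 macro, beside 0.049 and 0.079 over all genes. Without MDA-LM2 macro replicate 2, the count in MDA-LM2 macro was 3 instead of 11, and that over all genes 2433 instead of 4115.

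**Figure D2:**
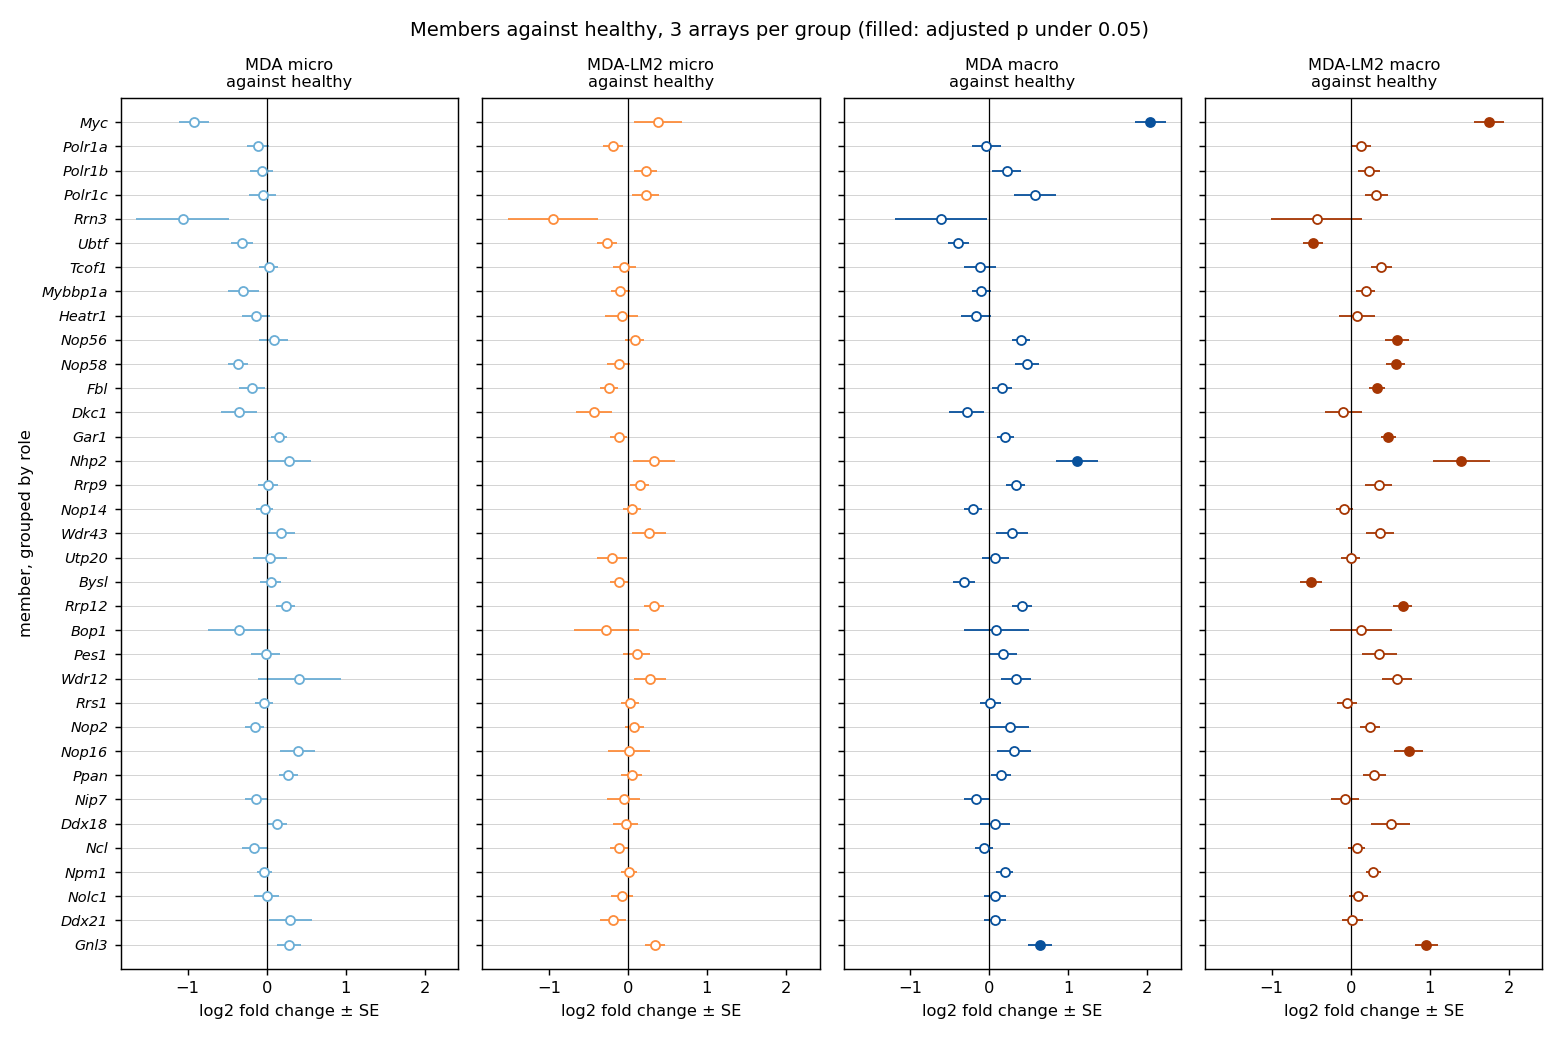
log2 fold change against healthy (x axis, ± SE of the limma fit) of the 35 genes in order of role (y axis), 1 panel for each metastasis group, 3 arrays a group, all 4 panels sharing the healthy arrays; filled points have an adjusted p under 0.05. No point is filled in the micro panels, 3 are filled in the MDA macro panel and 11 in the MDA-LM2 one, and Myc lies farthest to the right in both macro panels.

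Between week 1 and week 3, groups that share no array when taken line by line, 3 of 35 genes were called with MDA (all genes: 18.4%, with 10.4% higher and 7.95% lower) and 6 of 35 with MDA-LM2 (all genes: 15.6%, with 9.25% higher and 6.38% lower), all higher. At an unadjusted p under 0.05, 6 of 35 passed with MDA and 15 of 35 with MDA-LM2, against 32.9% and 29.9% of all genes. Myc, Nop58 and Nhp2 were called in both lines, which is 100% of the MDA calls and 50% of the MDA-LM2 calls. In sign, 27 of the 35 ran the same way in both lines, and 72.8% of all genes did. With the lines fitted together, 11 of 35 were called (31.4%), 10 higher and 1 lower, against 31.1% of all genes, with 18.8% higher and 12.3% lower. At an unadjusted p under 0.05, 13 of 35 passed, against 41.6% of all genes. The share of the list called was thus close to that of all genes. By role, calls over both lines fell on 3 of 3 box C/D genes, 2 of 3 box H/ACA genes, 2 of 5 chaperones and regulators, 2 of 6 small subunit genes, 1 of 8 polymerase I genes and 0 of 9 large subunit genes, beside Myc.

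**Figure D3:**
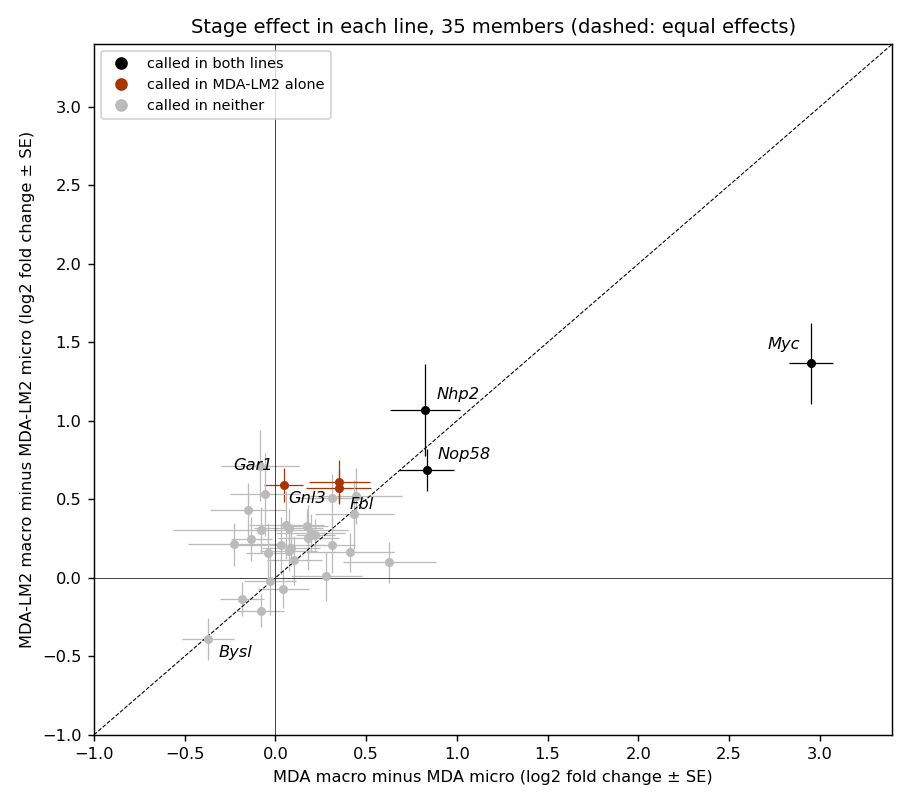
log2 fold change from week 1 to week 3 with MDA (x axis) and with MDA-LM2 (y axis), each ± SE, for the 35 genes; black points were called in both lines, red points with MDA-LM2 alone, grey points in neither, and the dashed line marks equal effects. Myc stands alone at 2.95 with MDA and 1.37 with MDA-LM2, below the dashed line.

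The box C/D snoRNP genes rose with stage, 3 of 3 called over both lines. Nop58, a core scaffold of these methylation particles, had log2 intensities of 9.75, 10.01 and 9.88 in healthy, 9.48, 9.41 and 9.67 in MDA micro, 9.96, 9.59 and 9.74 in MDA-LM2 micro, 10.62, 10.19 and 10.25 in MDA macro and 10.35, 10.56 and 10.43 in MDA-LM2 macro. Every macro array was above every micro and healthy array. The stage difference was 0.83 ± 0.15 with MDA (1.78-fold, adjusted p = 0.0101), 0.69 ± 0.13 with MDA-LM2 (1.61-fold, adjusted p = 0.015) and 0.76 ± 0.10 over both (adjusted p = 0.00012). Against healthy it was 0.57 ± 0.12 higher in MDA-LM2 macro (adjusted p = 0.0156) and stood at 0.47 ± 0.15 in MDA macro (adjusted p = 0.0812). Both MDA-LM2 calls were lost without MDA-LM2 macro replicate 2 (adjusted p = 0.0601 and 0.0574), and the other calls were kept without any single array. Its promoter window, in which neither E-box word was found, is the last of those printed above.

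Fbl, fibrillarin, is the methyltransferase of the same particle. Its values were 10.83, 10.73 and 10.79 in healthy, 10.77, 10.24 and 10.79 in MDA micro, 10.63, 10.54 and 10.46 in MDA-LM2 micro, 10.79, 11.10 and 10.95 in MDA macro and 11.08, 11.16 and 11.11 in MDA-LM2 macro. The MDA-LM2 macro arrays were tight and above every healthy and micro array, whereas one MDA macro array lay within the healthy range. Fbl rose by 0.57 ± 0.11 with stage in MDA-LM2 (adjusted p = 0.0122) and by 0.46 ± 0.11 over both lines (adjusted p = 0.00579), and its call against healthy in MDA-LM2 macro (0.33 ± 0.098, adjusted p = 0.0489) was lost without any one of the 6 arrays. In MDA macro against healthy the difference was 0.16 ± 0.12 (adjusted p = 0.418).

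Nop56, the partner scaffold of Nop58, had 10.47, 10.27 and 10.32 in healthy, 10.82, 10.36 and 10.16 in MDA micro, 10.39, 10.38 and 10.54 in MDA-LM2 micro, 10.83, 10.70 and 10.74 in MDA macro and 11.21, 10.92 and 10.70 in MDA-LM2 macro. Macro and healthy arrays did not overlap, but 1 MDA micro array reached the macro range. Nop56 was higher in MDA-LM2 macro than in healthy cells by 0.59 ± 0.15 (adjusted p = 0.0327) and rose by 0.41 ± 0.12 with stage over both lines (adjusted p = 0.0214), and in MDA macro it stood at 0.40 ± 0.12 against healthy without a call (adjusted p = 0.0575). The call in MDA-LM2 macro was lost without any one of 5 of the 6 arrays, and that over both lines without MDA micro replicate 3 (adjusted p = 0.0501).

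Of the box H/ACA genes, whose particles turn uridine into pseudouridine in rRNA, Nhp2 and Gar1 were called and Dkc1, the pseudouridine synthase itself, was not. Nhp2 read 9.27, 8.63 and 9.66 in healthy, 9.18, 9.51 and 9.72 in MDA micro, 9.70, 9.58 and 9.28 in MDA-LM2 micro, 10.60, 10.24 and 10.06 in MDA macro and 10.13, 11.27 and 10.35 in MDA-LM2 macro. All macro arrays exceeded all others, with a wide spread in MDA-LM2 macro that came from one array at 11.27. Nhp2 was the second largest change of the list against healthy, 2.16-fold in MDA macro (1.11 ± 0.27, adjusted p = 0.0347) and 2.64-fold in MDA-LM2 macro (1.40 ± 0.36, adjusted p = 0.031), and it rose by 0.83 ± 0.19 with MDA, 1.07 ± 0.29 with MDA-LM2 and 0.95 ± 0.19 over both lines (adjusted p = 0.0251, 0.0493 and 0.00206). Its calls within single lines and against healthy were each lost without some of the 6 arrays (4 or 5 of them), while the call over both lines was kept throughout.

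Gar1 read 10.53, 10.59 and 10.58 in healthy, 10.73, 10.66 and 10.78 in MDA micro, 10.52, 10.47 and 10.35 in MDA-LM2 micro, 10.74, 10.74 and 10.83 in MDA macro and 11.03, 11.09 and 11.00 in MDA-LM2 macro. The MDA-LM2 macro arrays lay above all the rest and the MDA-LM2 micro arrays below all the rest. The stage difference was 0.59 ± 0.11 with MDA-LM2 (adjusted p = 0.0112) and 0.045 ± 0.11 with MDA (adjusted p = 0.809), and the test of the difference between the lines gave 0.55 ± 0.13 with an adjusted p of 0.11, not called. Against healthy, Gar1 was 0.47 ± 0.097 higher in MDA-LM2 macro (adjusted p = 0.0143), a call lost without MDA-LM2 macro replicate 2 (adjusted p = 0.0522). Over both lines it rose by 0.32 ± 0.10 (adjusted p = 0.0309), and that call was lost when any one of the 6 MDA-LM2 arrays was left out. Dkc1 differed from healthy by -0.29 ± 0.22 in MDA macro and -0.092 ± 0.23 in MDA-LM2 macro (adjusted p = 0.426 and 0.806).

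The probe sets behind Nop56, Fbl, Gar1, Nhp2 and Dkc1 are of the kind that Affymetrix marks as able to match transcripts of more than one gene, so these levels carry that uncertainty. Other probe sets were at hand for 3 of the called genes among these. Over both lines the second probe set of Fbl differed by 0.63 between stages, that of Nhp2 by 1.07 and that of Nop56 by 0.54, the same direction as the ones used. Gar1 had none.

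Among the nucleolar chaperones and regulators, Gnl3 and Npm1 rose. Gnl3, nucleostemin, a GTP-binding protein of proliferating cells, read 9.37, 9.12 and 9.10 in healthy, 9.43, 9.30 and 9.73 in MDA micro, 9.63, 9.55 and 9.46 in MDA-LM2 micro, 9.88, 10.04 and 9.59 in MDA macro and 9.99, 10.09 and 10.39 in MDA-LM2 macro. Both macro groups lay above healthy, and the MDA-LM2 micro group did so too, so the groups formed a series of small steps with overlaps between MDA micro and MDA macro. Gnl3 was 1.94-fold higher in MDA-LM2 macro than in healthy (0.96 ± 0.15, adjusted p = 0.00466), a call kept without any single array, and 1.56-fold higher in MDA macro (0.64 ± 0.15, adjusted p = 0.0338), a call lost without any one of 4 of the 6 arrays. With stage it rose by 0.61 ± 0.14 in MDA-LM2 (adjusted p = 0.0256) and 0.48 ± 0.11 over both lines (adjusted p = 0.0066), the former lost without any one of 5 of the 6 arrays.

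Npm1, nucleophosmin, an abundant nucleolar chaperone, read 12.70, 12.67 and 12.74 in healthy, 12.73, 12.60 and 12.70 in MDA micro, 12.69, 12.70 and 12.75 in MDA-LM2 micro, 12.92, 12.92 and 12.84 in MDA macro and 12.97, 13.00 and 12.98 in MDA-LM2 macro. The macro arrays were all above the others, by a small margin with little spread. The rise over both lines was 0.25 ± 0.063 (1.19-fold, adjusted p = 0.00967), and no comparison of single groups called it. This is a reading of 1 of the 2 probe sets of Npm1. Ncl, nucleolin, Nolc1, a snoRNP chaperone, and Ddx21, a helicase of rRNA processing, were called in no comparison, with stage differences over both lines of 0.14 ± 0.094, 0.12 ± 0.098 and -0.0075 ± 0.16. For Ncl its 5 probe sets ranged from -0.24 to 0.31 over both lines, and the second probe set of Ddx21 stood at 0.63 beside the -0.0075 of the one used.

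In small subunit processing, Rrp12 rose and Bysl fell while Rrp9, Nop14, Wdr43 and Utp20 were not called. Rrp12, which helps export pre-ribosomal particles, read 7.28, 7.39 and 7.60 in healthy, 7.68, 7.59 and 7.73 in MDA micro, 7.85, 7.71 and 7.70 in MDA-LM2 micro, 7.73, 7.86 and 7.92 in MDA macro and 8.15, 8.05 and 8.04 in MDA-LM2 macro. Every array from a lung with metastases other than 1 MDA micro array was above all healthy arrays, and MDA-LM2 macro lay above all the rest. Rrp12 was 1.58-fold higher in MDA-LM2 macro than in healthy (0.66 ± 0.12, adjusted p = 0.00927), held without any single array, and stood at 0.41 ± 0.13 in MDA macro (adjusted p = 0.0736). The stage difference over both lines was 0.25 ± 0.072 (adjusted p = 0.0189), and this call was lost when arrays were quantile normalised or centred on their medians (adjusted p up to 0.0818).

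Bysl, bystin, which acts late in small subunit maturation, read 8.93, 9.11 and 8.83 in healthy, 9.12, 9.07 and 8.83 in MDA micro, 8.87, 8.78 and 8.89 in MDA-LM2 micro, 8.75, 8.72 and 8.44 in MDA macro and 8.31, 8.37 and 8.68 in MDA-LM2 macro. The macro arrays were below all micro and healthy arrays. It fell by 0.50 on the log2 scale in MDA-LM2 macro against healthy (SE 0.14, adjusted p = 0.0432) and by 0.38 over both lines with stage (SE 0.093, adjusted p = 0.00768). The second probe set of Bysl went the other way, 0.38 and 0.25 higher in the same comparisons, so the fall is a reading of 1 probe set. The call in MDA-LM2 macro was also lost without any one of 5 of the 6 arrays. The others of this group stayed within -0.21 and 0.38 of healthy in the macro groups, with Nop14 at the low end in MDA macro and Wdr43 at the high end in MDA-LM2 macro.

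Of the 8 RNA polymerase I genes, 0 were called higher than healthy in either macro group and Ubtf was called lower in MDA-LM2 macro (all genes: 8.43% and 13.6% higher, 6.8% and 8.98% lower), with medians of -0.11 in MDA macro and 0.16 in MDA-LM2 macro. At an unadjusted p under 0.05, 1 of the 8 passed in MDA macro and 2 in MDA-LM2 macro, against 30.9% and 36.9% of all genes. Ubtf, the factor that opens rRNA genes for RNA polymerase I, read 11.27, 10.98 and 11.28 in healthy, 10.81, 10.75 and 11.05 in MDA micro, 10.83, 10.97 and 10.93 in MDA-LM2 micro, 10.71, 10.91 and 10.75 in MDA macro and 10.68, 10.76 and 10.67 in MDA-LM2 macro. All macro arrays lay below all healthy ones, and the micro arrays reached into both ranges. Ubtf fell by 0.48 on the log2 scale in MDA-LM2 macro against healthy (SE 0.12, adjusted p = 0.0307), a call lost without any one of 5 of the 6 arrays, and stood at -0.39 ± 0.13 in MDA macro (adjusted p = 0.0937). Its second probe set gave -0.23 in MDA-LM2 macro and -0.22 in MDA macro.

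Rrn3, which tethers RNA polymerase I to its promoter and whose own promoter holds 2 E-boxes, read 10.68, 8.36 and 8.60 in healthy, 8.32, 7.75 and 8.39 in MDA micro, 8.31, 8.35 and 8.12 in MDA-LM2 micro, 8.27, 9.07 and 8.46 in MDA macro and 8.83, 8.44 and 9.08 in MDA-LM2 macro. Healthy replicate 1 stood far above the other 14 arrays. Rrn3 was -0.62 ± 0.58 and -0.43 ± 0.58 from healthy in MDA macro and MDA-LM2 macro, and 0.12 and 0.30 without that array, never called. Over both lines it rose with stage by 0.48 ± 0.16 (adjusted p = 0.0373), but the call was lost without any one of 7 of the 12 arrays and under 4 of the other settings, with adjusted p up to 0.277.

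The other polymerase genes were called nowhere. Polr1a, the largest catalytic subunit, differed with stage over both lines by 0.20 ± 0.12, its catalytic partner Polr1b by 0.14 ± 0.13 and Polr1c, shared with RNA polymerase III, by 0.36 ± 0.17 (adjusted p = 0.23, 0.436 and 0.121). Tcof1, treacle, and Mybbp1a, both polymerase I cofactors, were higher in MDA-LM2 macro than in MDA macro by 0.51 ± 0.22 and 0.29 ± 0.11 without a call (adjusted p = 0.483 and 0.438). For Mybbp1a these values were 10.64, 10.86 and 10.74 against 10.52, 10.47 and 10.38. Heatr1, needed for rRNA transcription and early processing, differed with stage by 0.059 ± 0.12.

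Of the 9 large subunit assembly genes, 0 were called in MDA macro and 1 in MDA-LM2 macro against healthy (all genes: 15.2% and 22.6%). Nop16, a nucleolar protein of the large subunit precursor, read 7.61, 7.95 and 8.28 in healthy, 8.03, 8.32 and 8.67 in MDA micro, 7.54, 8.45 and 7.90 in MDA-LM2 micro, 7.90, 8.44 and 8.43 in MDA macro and 8.54, 8.82 and 8.68 in MDA-LM2 macro. The MDA-LM2 macro arrays were above all healthy ones, and the remaining groups overlapped broadly. Nop16 was 0.73 ± 0.18 higher in MDA-LM2 macro than in healthy (adjusted p = 0.0284), a call lost without any one of 5 of the 6 arrays, and its second probe set stood at -0.26.

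Bop1, Pes1 and Wdr12 form one complex needed for processing of the large subunit precursor. None was called, although Bop1 and Wdr12 each had an array far from its group. Bop1 read 10.27 on healthy replicate 1 against 8.99 and 8.69 on the others, and its difference from healthy in MDA-LM2 macro was 0.13 with that array and 0.61 without it (adjusted p = 0.843 and 0.0917). Wdr12 read 10.09 on MDA micro replicate 2 against 8.15 and 8.18, and its stage difference with MDA was -0.082 with that array and 0.56 without it (adjusted p = 0.926 and 0.0419). Over both lines the Wdr12 difference went from 0.11 to 0.42 (adjusted p = 0.793 and 0.00997). Pes1, the methyltransferase Nop2, the assembly factors Rrs1, Ppan and Nip7 and the helicase Ddx18 had stage differences over both lines from -0.025 (Nip7) to 0.29 (Nop2), with adjusted p from 0.155 to 0.924.

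At week 3 no gene of the list was called between the lines. In MDA-LM2 macro against MDA macro 0 of 35 were called (all genes: 0.011%), 5 had an unadjusted p under 0.05 (all genes: 10.2%), and 27 lay higher in MDA-LM2, with a median of 0.15 beside 0.028 over all genes. Gar1, Mybbp1a and Myc, whose arrays did not overlap between the lines, had the lowest p-values, with Myc in the opposite direction. Of the 35, 6 had all MDA-LM2 arrays higher and 1 had them all lower (all genes: 1768 and 1169 of 18194). For Gar1, at 0.27 ± 0.10 (adjusted p = 0.421), the 95% confidence interval of the single fit ran from 0.037 to 0.51.

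Among MYC's own network, in which related proteins compete for MAX, 16 of 16 listed genes were measured. In MDA macro against healthy 2 were called higher and 1 lower, in MDA-LM2 macro 5 higher and 1 lower, and with stage over both lines 4 higher and 1 lower. These are 18.8%, 37.5% and 31.2% of the list, beside 15.2%, 22.6% and 31.1% of all genes. Mxi1, a MAX partner that opposes MYC, was the one that fell, at -0.87 ± 0.16, -0.79 ± 0.10 and -0.81 ± 0.11 in those comparisons (adjusted p = 0.0125, 0.00247 and 0.000202). The paralogs Mycn and Mycl rose, Mycn by 0.83, 0.85 and 0.63 and Mycl by 0.62, 0.69 and 0.51 (adjusted p from 0.000286 to 0.0346). The list, of MYC partners and antagonists alike, held others that rose. Fbxw7 rose by 0.52 ± 0.11 with stage over both lines and 0.72 ± 0.15 in MDA-LM2 (adjusted p = 0.00298 and 0.0197). Mxd3 rose by 0.50 ± 0.11 with stage in MDA (adjusted p = 0.0227).

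Genes often given as MYC targets outside the nucleolus were listed too, also with earlier results of these data known. Of 27 measured of 30 listed, 6 were higher in MDA macro and 12 in MDA-LM2 macro (22.2% and 44.4%, against 8.43% and 13.6% of all genes) and 0 lower, with medians of 0.40 and 0.51, so most did not pass against healthy. With stage over both lines 19 were higher (70.4%, against 18.8% of all genes) and 1 lower. Ccnd2, a cyclin of the first gap phase, was 1.32 ± 0.15 and 1.49 ± 0.14 above healthy (adjusted p = 0.00194 and 0.000767), Apex1, a DNA repair endonuclease, 0.94 ± 0.18 and 1.04 ± 0.10, and Ldha, lactate dehydrogenase, 0.83 ± 0.18 and 1.01 ± 0.12. With stage the amino acid transporter Slc7a5 rose by 1.36 ± 0.15 and the transferrin receptor Tfrc by 1.18 ± 0.24 (adjusted p = 2.09e-05 and 0.00299).

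The other ribosome biogenesis lists are read against the 15.2% of all genes called in MDA macro and the 22.6% called in MDA-LM2 macro. Of 13 other polymerase I genes, 1 was higher and 1 lower in MDA macro and 2 higher and 1 lower in MDA-LM2 macro (15.4% and 23.1%), led by 2 subunits of the promoter factor SL1, Taf1d up (1.00 ± 0.22 and 0.65 ± 0.12) and Taf1a down (-1.03 ± 0.23 and -1.04 ± 0.27). Of 45 other small subunit processing genes, 1 was higher and 1 lower in MDA macro and 6 higher in MDA-LM2 macro (4.44% and 13.3%), with the late assembly factor Pno1 at 1.05 ± 0.16 and 0.96 ± 0.16. Of 46 other large subunit genes 1 and 4 were called higher (2.17% and 8.7%), with Eif6, which keeps unripe large subunits from joining small ones, at 0.64 ± 0.12 and 0.83 ± 0.18. Of the 79 cytosolic ribosomal protein genes listed, 44 had a probe set naming them alone, and 0 and 2 of these were called (0% and 4.55%), Rps18 and Rplp0, though near-identical pseudogenes make their levels uncertain. An unadjusted p under 0.05 was seen for 1 of the 44 in MDA macro and 7 in MDA-LM2 macro, all higher. Over all genes these shares were 30.9% and 36.9%. Of the 44, 32 lay above healthy in MDA macro and 37 in MDA-LM2 macro, where 10196 and 10706 of all 18194 genes did. Medians of these 4 lists in MDA-LM2 macro were -0.057, 0.051, 0.15 and 0.12, beside 0.079 over all genes. In MDA macro they were -0.25, -0.030, 0.011 and 0.036, all below the 0.049 of all genes.

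Markers of dividing cells moved with the macro groups. Of 15 measured, 14 were called higher in each macro group against healthy, with medians of 1.82 in MDA and 1.74 in MDA-LM2, and Mki67, a proliferation antigen, rose by 3.30 ± 0.21 and 3.06 ± 0.21 (adjusted p = 0.000395 and 0.000223). Genes of the p53 and nucleolar stress response, a response that restrains division, were called higher for 5 and 6 of 13 measured (38.5% and 46.2%, against 8.43% and 13.6% of all genes). The cell cycle inhibitor Cdkn1a stood at 1.32 ± 0.18 and 1.07 ± 0.16. What part the share of dividing cells had in the levels of Myc and the ribosome genes was not tested.

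**Figure D4:**
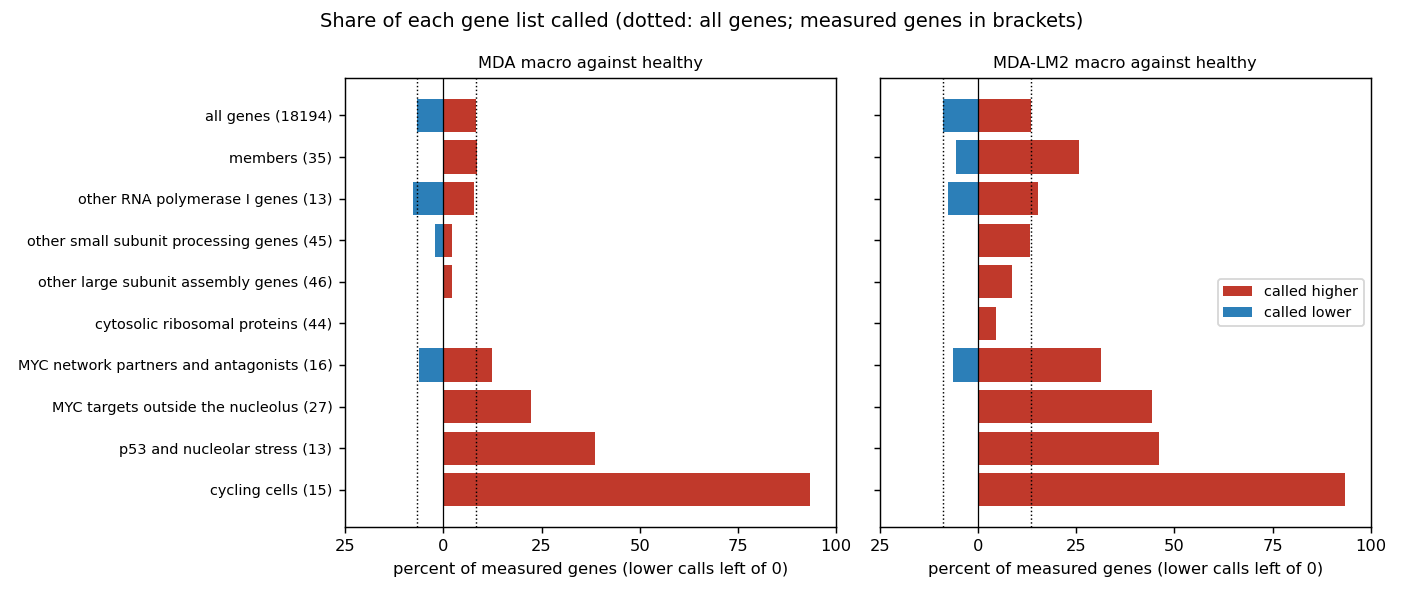
Percent of the measured genes of each list (y axis, number measured in brackets) called higher (red, right of 0) or lower (blue, left of 0) against healthy in MDA macro and MDA-LM2 macro; dotted lines mark the percent over all genes. The 35 genes (members) reach 8.57% and 25.7% higher, near and above the dotted lines at 8.43% and 13.6%, and the markers of dividing cells reach 93.3% in both.

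Markers of other cell types also moved. The summed intensity of 8 leukocyte markers was 1215 to 1546 in healthy, 2752 to 3053 in MDA macro and 1868 to 3527 in MDA-LM2 macro. Of the 8, 3 and 2 were called higher (37.5% and 25%, against 8.43% and 13.6% of all genes). These were Cd3e, a T cell gene, by 2.89 and 2.29, Cd68 by 1.04 and 1.48, and Lyz2 by 1.18 in MDA macro. NSG mice lack mature lymphocytes, so the rise in Cd3e does not by itself show T cells, and its source was not tested. Ptprc, the marker sorted against, lay between 6.26 and 6.57 on every array. Of 6 endothelial markers 1 was called higher and 2 lower in MDA macro, and 2 higher and 2 lower in MDA-LM2 macro. Over all genes 6.8% and 8.98% were called lower. Kdr was higher by 3.09 and 4.33, and Emcn by 0.97 in MDA-LM2 macro. Tek stood at -2.23 and -2.50 and Cdh5 at -1.13 and -1.12. Endothelial sums were 1583 to 2303 in healthy, 1437 to 1858 in MDA macro and 2682 to 2945 in MDA-LM2 macro. Of 6 epithelial markers Krt8 was higher in each macro group and Scgb1a1 lower in MDA-LM2 macro, and the sums were 863 to 2656, 1281 to 1617 and 1574 to 2261. Of 8 fibroblast markers 2 were called higher and 2 lower in MDA macro, and 1 higher and 3 lower in MDA-LM2 macro. Among them Thy1 stood at 1.77 and 1.86 and Dcn at -0.49 and -0.59. The part of these markers in the results above was not tested.

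The arrays also carry control probe sets for 18S rRNA, the product of this pathway, although they read whatever rRNA was amplified. Over 6 macro against 6 micro arrays they were slightly lower, by -0.049, -0.078 and -0.072 on the log2 scale for the 3′, middle and 5′ probe sets (exact permutation p, two-sided, 0.0108, 0.026 and 0.013; adjusted over 6 measures 0.026, 0.039 and 0.026). Their means were 14.10, 14.07 and 13.69 in macro and 14.15, 14.15 and 13.76 in micro. The median over all genes ran the other way, 8.14 in macro and 8.09 in micro (exact permutation p = 0.0108). The signal of Gapdh and Actb at the 3′ end less that at the 5′ end, a sign of RNA quality, differed by -0.15 and -0.026 (exact permutation p = 0.136 and 0.275). By group the Gapdh measure was 1.162, 1.702 and 1.577 in healthy, 1.374, 1.365 and 1.441 in MDA micro, 1.184, 1.243 and 1.193 in MDA-LM2 micro, 1.349, 1.434 and 1.032 in MDA macro and 1.007, 1.050 and 1.051 in MDA-LM2 macro. MDA-LM2 macro thus lay below all healthy arrays, and MDA-LM2 micro below all MDA micro arrays. It moved with the comparison of MDA-LM2 macro with healthy and with that of Myc between the lines at week 1, and its part in either was not tested.

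Set against the promoters, the calls fell as follows. With stage over both lines 31.1% of all genes were called, 18.8% higher and 12.3% lower. Of the 6 genes with CACGTG in the window, 1 was called, Rrn3, a call lost without some single arrays. Of the 22 without it, 6 were called, Gar1, Gnl3, Nhp2, Nop56 and Nop58 higher and Bysl lower. Of the 11 with CACGCG or CGCGTG, Nhp2 was called higher and Bysl lower. Myc, Fbl, Npm1 and Rrp12, also called in this comparison, had no window. No test was run on these counts.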

How the data were processed

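Lung fibroblast RNA of 15 samples (5 groups of 3) was isolated with a PicoPure kit, amplified from small amounts by whole-transcript amplification and hybridised to Affymetrix mouse arrays. The authors normalised the arrays together by RMA, and the deposited values are intensities on a linear scale, as inferred from their range (lowest 31.0 to 35.2 and highest 26890 to 27897 on the arrays), so log2 was taken here. No raw scans were used, and precision is bounded by having 3 arrays a group. Of 45100 probe sets, 64 controls, 932 with several symbols and 9211 with none were set aside, and 34957 named 1 gene each. Per gene the probe set with the highest mean log2 was kept, giving 18194 genes. Groups come from the sample labels.

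Comparisons of 2 groups were fitted on their 6 arrays in R 4.3.3 by limma 3.58.1, calling lmFit and then eBayes, with two-sided tests. The stage effect over both lines (with line as a covariate) and the stage by line interaction were fitted on 12 arrays. The Benjamini-Hochberg adjustment took in all 18194 genes, with 0.05 as threshold. The fitting code was run on simulated data in which a small share of genes was changed, mostly by more than the changes called here. That run checked the code and does not bear on how firm the calls above are. Tables and figures used Python 3.11.15, pandas 2.3.3, numpy 2.4.6 and matplotlib 3.10.9. All 35 genes could be named, with array values for Myc and the called members of largest change per comparison (or lowest p where none was called), and from the other lists up to 4 called genes of largest change. The members and lists were chosen with earlier results of these data known. Alternatives were 1 fit of all 15 arrays, quantile normalization, median centring, the mean over probe sets, a filter on low levels, a replicate block, and each array left out in turn. Promoter windows are RefSeq's, build GRCm38.p6, matched for 28 of 35 genes.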

Additional observations from a re-analysis of the deposited data

Results flagged for a closer look

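The stage effect on Myc differed between the lines by the interaction test: the rise from week 1 to week 3 was smaller with MDA-LM2 than with MDA by -1.585 on the log2 scale (limma adjusted p = 0.0454). The micro arrays, not the macro arrays, held most of this difference, since the lines stood 1.30 apart in micro and -0.29 apart in macro. Leaving out replicate 2 of MDA-LM2 micro kept the call at -1.83 (adjusted p = 0.0136), as did leaving out replicate 3 at -1.29 (adjusted p = 0.033), and it was lost without any one of the other 10 arrays. Of 15 markers of dividing cells, 1 (Top2a) was called between the lines in micro, with 10 higher and 5 lower in MDA-LM2, a median of 0.099 and summed intensities of 2329 to 2844 in MDA-LM2 micro and 1951 to 2179 in MDA micro. The 3′ less 5′ signal of Gapdh, a sign of RNA quality, was 1.184 to 1.243 in MDA-LM2 micro and 1.365 to 1.441 in MDA micro. Their part in the difference was not tested.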

How the results depend on the processing

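Counts of called genes among the 35 moved as follows. One fit of all 15 arrays called 6 instead of 3 in MDA macro against healthy and 1 (Myc, adjusted p = 0.0123) instead of 0 in MDA-LM2 micro against MDA micro. With stage in MDA-LM2 the count went from 6 to 9 in that fit and also with the mean over probe sets. Over all genes the fit of 15 arrays called 3568 instead of 2770 in MDA macro against healthy. With stage in MDA-LM2 it called 3319, and the mean over probe sets 3352, instead of 2843. Leaving out single arrays gave 1 to 2 calls in MDA macro against healthy (1 without healthy replicate 2, MDA macro replicate 1 or MDA macro replicate 2), 3 to 8 in MDA-LM2 macro against healthy (3 without MDA-LM2 macro replicate 2, 5 without healthy replicate 1, 6 without healthy replicate 2 or MDA-LM2 macro replicate 1), 2 to 3 with stage in MDA, 4 to 6 in MDA-LM2, 9 to 13 over both lines and 0 to 1 for the interaction. In the same order, calls over all genes ran from 1529 to 2143, 2433 to 3317, 2138 to 2626, 1701 to 2511, 5019 to 5459 and 44 to 112. With every array kept they were 2770, 4115, 3346, 2843, 5657 and 103. Calls among the 35 that no left-out array removed numbered 1 of 3, 3 of 11, 2 of 3, 3 of 6, 8 of 11 and 0 of 1 in these comparisons. Wdr12 reversed with stage in MDA, from -0.082 to 0.56 without MDA micro replicate 2 (range over left-out arrays -0.41 to 0.56). The RNA quality measures passed an unadjusted 0.05 without 1 array each, Gapdh at -0.202 (exact permutation p = 0.0281, range -0.202 to -0.117) without MDA macro replicate 2 and Actb at -0.0423 (exact permutation p = 0.0346, range -0.0423 to -0.0135) without MDA macro replicate 1. The cause of these changes was not tested.

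Same-numbered samples did not deviate together over all genes (24 pairs, r from -0.0651 to 0.0745), which gives no sign of pairing by number. This check cannot tell whether they were handled together or share an effect on some genes. With the replicate number as a block the counts were 1 in MDA macro and 7 in MDA-LM2 macro against healthy, 2 with stage in MDA, 3 in MDA-LM2, 9 over both lines and 0 for the interaction. In the same order the block called 1890, 3100, 2456, 2085, 5315 and 83 of all genes. Over all genes, calls went from 0 to 22 in MDA micro against healthy, from 106 to 322 in MDA-LM2 micro against healthy, from 75 to 231 between the lines in micro and from 2 to 64 in macro in the fit of all 15 arrays, and to 0 in each with the block. Averaging probe sets gave 122, 21 and 188 for the lines in micro, in macro and the interaction (75, 2 and 103 as reported). Each level rests on 1 probe set and 3 arrays a group, which limits the precision.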
